A study of Caenorhabditis elegans with 24 samples.

Results

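A set of 9 of the 46904 gene identifiers in the deposited tables belongs to the breakdown of propionate and the methionine cycle in the nematode Caenorhabditis elegans. They were taken by name and by no cut on a measured value, although earlier results of these data were known when they were chosen. The set holds acdh-1 and hphd-1 of the propionate shunt, and pcca-1, pccb-1, mce-1 and mmcm-1 of the vitamin B12 dependent propionate route. Its other members are metr-1, mtrr-1 and sams-1 of the methionine cycle. All 9 were found in the tables and all 9 passed the filter on low counts. RNA of whole worms was sequenced from CF1041, a strain with the genotype daf-2(e1370), and from the wild-type strain N2, on days 1, 4, 7 and 11 of adulthood, with 3 libraries in each of the 8 groups. The allele e1370 is a reduced-function missense allele of the only insulin/IGF-1 receptor gene of the worm, and both strains went through the same culture. Embryos were released by bleach, held in buffer for 16 h at 20°C, and raised on the Escherichia coli strain OP50. From the last larval stage all groups, the day 1 groups and N2 included, received 50 µM FUDR, a thymidylate synthase inhibitor that stops progeny from hatching. The labels do not say that replicate libraries were grown as independent cultures, and if they were not, the p-values reflect technical spread alone.

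Propionate is made when branched-chain amino acids and odd-chain fatty acids are broken down, and it is toxic when it builds up. When vitamin B12 is available, propionyl-CoA is carboxylated by the propionyl-CoA carboxylase subunits encoded by pcca-1 (alpha) and pccb-1 (beta), converted by the methylmalonyl-CoA epimerase MCE-1, and rearranged to succinyl-CoA by the mutase MMCM-1, which needs B12 as its cofactor. When B12 is scarce, as it is for worms fed OP50, they use a shunt without B12, in which the acyl-CoA dehydrogenase ACDH-1 acts first and the dehydrogenase HPHD-1 oxidises 3-hydroxypropionate further on. The other enzyme that needs B12 is the methionine synthase METR-1, kept active by the reductase MTRR-1. The methionine it makes is turned by the synthetase SAMS-1 into S-adenosylmethionine, the donor of methyl groups for many reactions, phosphatidylcholine synthesis among them.

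On the WBcel235 assembly, as annotated by Ensembl, all 9 are protein-coding genes. In the shunt, acdh-1 (WBGene00016943) lies on chromosome I from 6497436 to 6499560 and hphd-1 (WBGene00012608) on chromosome II from 12994354 to 12996571. In the B12 route, pcca-1 (WBGene00017864) lies on chromosome X from 7657542 to 7660986 and pccb-1 (WBGene00018701) on X from 3089549 to 3092437. The epimerase gene mce-1 (WBGene00008415) lies on chromosome I from 7582106 to 7583333 and mmcm-1 (WBGene00014202) on chromosome III from 3903185 to 3907687. In the methionine cycle, metr-1 (WBGene00010988) lies on chromosome II from 10926561 to 10931078, mtrr-1 (WBGene00006510) on II from 9285975 to 9289132 and sams-1 (WBGene00008205) on X from 11965962 to 11969893. Exons of pccb-1 overlap those of wrt-2, on the opposite strand, by 43 bp, and the other 8 share no exon bases with another gene.

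Libraries held 20660999 to 32655703 expected counts over genes. The lowest count of any of the 9 genes in a library was 353, for mce-1, and none of their counts was fractional, so no read of theirs had been divided between genes. Levels are given in CPM, counts relative to the TMM-scaled library size, in the order of libraries 1, 2 and 3, and each mean has its SD with n = 3. A gene was called when edgeR's quasi-likelihood test gave it an adjusted p under 0.05 after Benjamini-Hochberg adjustment over 16698 genes, and every adjusted p below is of that kind unless another test is named. Fold changes are log2 values with the standard error (SE), 3 libraries against 3. The 3 age comparisons of a strain share its day 1 libraries. For some of the 9 genes, libraries with the same number lay on the same side of their group means in all 8 groups. All 8 libraries numbered 3 lay below their group means for mmcm-1 (mean log2 deviation -0.41) and metr-1 (-0.36), and their ribosomal RNA share was 7.92% to 14.55%, beside shares of 5.59% to 8.83% for number 1 and 3.9% to 9.62% for number 2. All 8 numbered 1 lay above the mean for acdh-1, hphd-1, mmcm-1, metr-1 and sams-1, and all 8 numbered 2 lay below it for acdh-1 (-0.51). The part of ribosomal RNA content in these deviations was not tested.

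**Figure D1:**
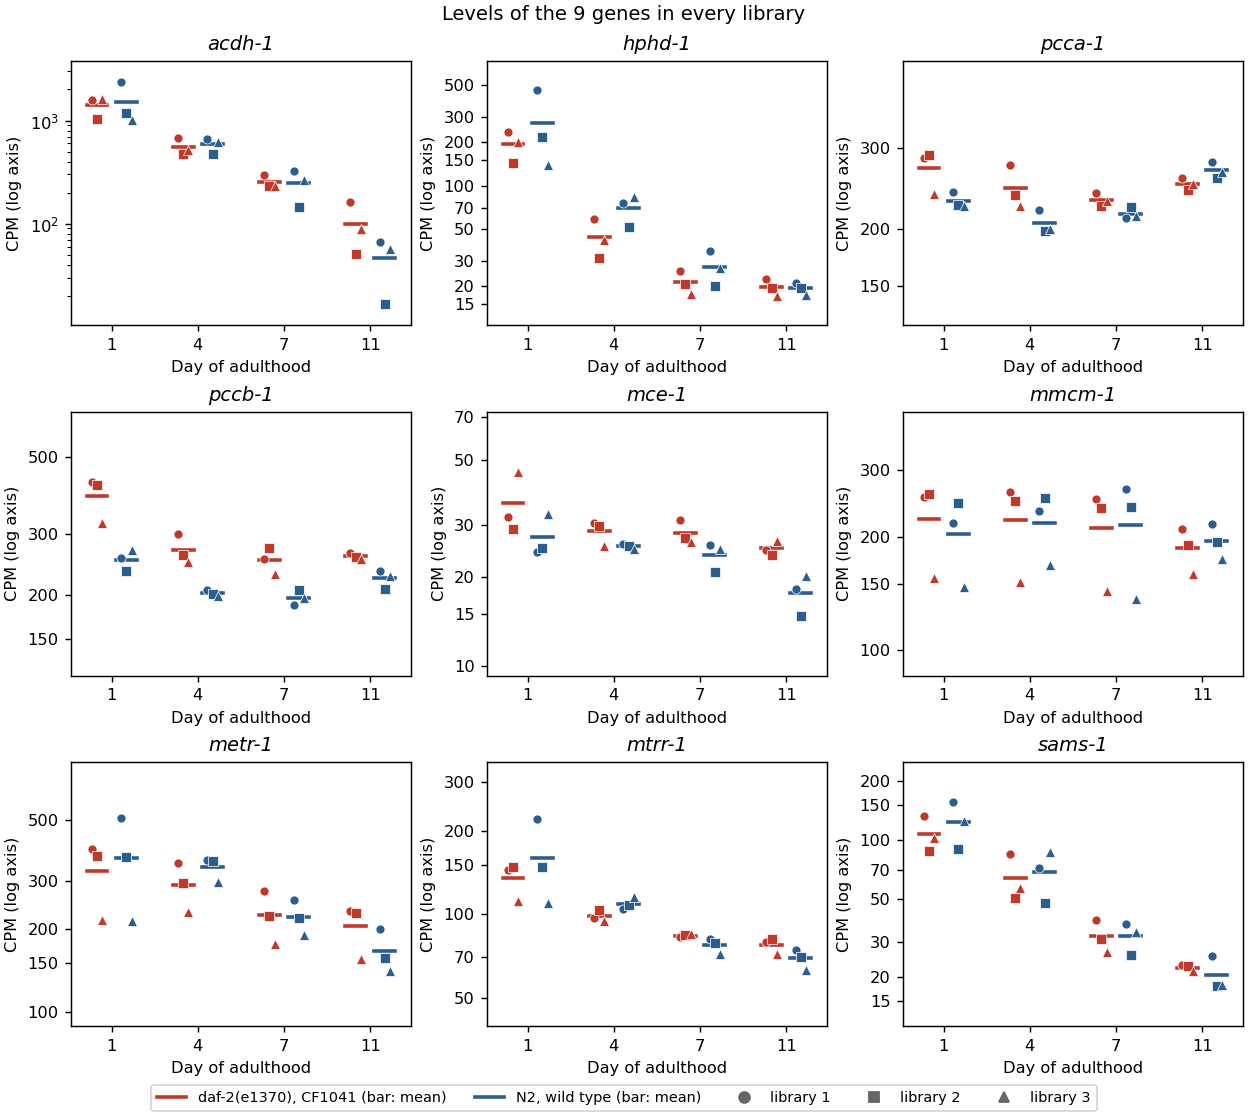
Level of each of the 9 genes in every library, in CPM on a log axis, against day of adulthood, with daf-2(e1370) in red to the left of N2 in blue. Marker shapes are library numbers and bars are means of 3 libraries. Levels of acdh-1, hphd-1 and sams-1 descend across the days in both strains, while the means of pcca-1 and mmcm-1 stay within a narrow band. Single libraries of mmcm-1 spread more widely within each group.

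Both shunt genes fell steeply with adult age in both strains. By day 11 acdh-1 was 14.1-fold lower than at day 1 in daf-2 worms and 32.6-fold lower in N2, and hphd-1 was 9.82-fold lower in daf-2 worms and 14.1-fold lower in N2. Without N2 day 1 library 1 the log2 change of hphd-1 in N2 was -3.21, beside -3.30 in daf-2. Most of the drop of hphd-1 was reached by day 7, while the means of acdh-1 were lowest at day 11.

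For acdh-1, which takes the first step of the shunt, daf-2 worms had 1582, 1043 and 1632 CPM at day 1, 680.5, 471 and 514 CPM at day 4, 299, 230 and 229 CPM at day 7, and 161, 50.9 and 88.8 CPM at day 11. In N2 the values were 2355, 1188 and 1022 CPM at day 1, 667, 472 and 622 CPM at day 4, 327, 145 and 266 CPM at day 7, and 66.2, 16.6 and 57.0 CPM at day 11. In each strain every later library was below every day 1 library. The decrease at day 11 was called in both strains (log2 fold change -3.82 ± 0.48, adjusted p = 3.96e-06 in daf-2; -5.03 ± 0.51, adjusted p = 2.27e-07 in N2). At day 7 it was also called, at -2.49 ± 0.45 in daf-2 and -2.63 ± 0.46 in N2. At day 4 it was -1.35 ± 0.44 in daf-2 (adjusted p = 0.0563) and -1.37 ± 0.44 in N2 (adjusted p = 0.053), and neither passed. With the library number as a block, a pairing that the daf-2 libraries met, the day 4 value in daf-2 passed (adjusted p = 0.00154). In N2, whose day 4 comparison did not meet that pairing, it passed as well (adjusted p = 0.0019). Both strains passed with DESeq2's Wald test (adjusted p = 0.0148 in daf-2 and 0.0165 in N2). At 1 CPM in 3 libraries or with protein-coding genes only, both passed narrowly (adjusted p between 0.0446 and 0.0491). With upper-quartile factors, library size alone or no libraries numbered 3, neither strain passed. With DESeq2 size factors or no low-count filter only daf-2 did. Leaving out 1 library gave day 4 values in N2 from -1.59 (without day 1 library 3, adjusted p = 0.0392) to -0.91 (without day 1 library 1, adjusted p = 0.314). With only the groups compared in the fit the day 4 value passed in both strains (adjusted p = 0.0196 in daf-2 and 0.0458 in N2).

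The group means of acdh-1 fell into steps by day, with the strains side by side at each age. Means were 1419 ± 327 CPM in daf-2 and 1521 ± 726 CPM in N2 at day 1, 555 ± 111 and 587 ± 102 CPM in the same strain order at day 4, 253 ± 39.9 and 246 ± 92.5 CPM at day 7, and 100.3 ± 56.1 and 46.6 ± 26.4 CPM at day 11. The libraries of the strains overlapped at every age. Between neighbouring steps, the day 1 and day 4 libraries did not overlap, nor did those of day 4 and day 7, whereas the lowest N2 library at day 7 (145 CPM) lay below the highest daf-2 library at day 11 (161 CPM).

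For hphd-1, daf-2 worms had 237, 144 and 201 CPM at day 1, 58.5, 31.3 and 41.8 CPM at day 4, 25.4, 20.9 and 17.8 CPM at day 7, and 22.5, 19.5 and 17.2 CPM at day 11. N2 worms had 458, 218 and 138 CPM at day 1, 76.2, 51.5 and 83.3 CPM at day 4, 35.2, 20.0 and 26.8 CPM at day 7, and 21.1, 19.5 and 17.3 CPM at day 11. No later library reached the day 1 range of its strain. It fell at day 4 (-2.15 ± 0.34, adjusted p = 0.000345 in daf-2; -1.95 ± 0.34, adjusted p = 0.000815 in N2), at day 7 (-3.18 ± 0.35 in daf-2; -3.31 ± 0.36 in N2) and at day 11 (-3.30 ± 0.36, adjusted p = 6.43e-07 in daf-2; -3.82 ± 0.36, adjusted p = 1.08e-07 in N2). The ranges of days 7 and 11 overlapped in both strains. The N2 values leaned on day 1 library 1, without which they were -1.34 at day 4, -2.71 at day 7 and -3.21 at day 11, all still called.

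Compared per kb of exon, taken over all transcripts of a gene, acdh-1 and hphd-1 dropped in the order of the 9 genes with age. At day 1 acdh-1 had the highest mean level, 846 CPM per kb in daf-2 and 907 CPM per kb in N2, ahead of pccb-1 in daf-2 (208 CPM per kb) and of hphd-1 in N2 (164 CPM per kb). At day 11 the first place was taken by pccb-1, with 139 CPM per kb in daf-2 and 120.1 CPM per kb in N2. By then acdh-1 was at 59.8 CPM per kb in daf-2 and 27.8 CPM per kb in N2, in the fourth and the sixth place.

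Further enzymes of the shunt were followed beside the 9 genes. Of 3 further shunt genes, all 3 fell at day 11 in daf-2, where 18% of all genes were called lower, and 2 fell in N2, where 19.2% were. The enoyl-CoA hydratase gene ech-6 had 144, 127 and 110.4 CPM at day 11, against 584, 412 and 463 CPM at day 1, in daf-2, and 120, 105 and 100.2 CPM at day 11, against 862, 609 and 414 CPM at day 1, in N2. Its changes were -1.93 ± 0.22 in daf-2 (adjusted p = 1.23e-06) and -2.54 ± 0.23 in N2 (adjusted p = 4.17e-08). The hydrolase gene hach-1 fell by -1.24 ± 0.26 and -1.89 ± 0.26 on the log2 scale in daf-2 and N2. For alh-8, a semialdehyde dehydrogenase gene at the end of the shunt, the change was called in daf-2 (-0.78 ± 0.20, adjusted p = 0.00394) and not in N2 (-0.48 ± 0.20, adjusted p = 0.0547).

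Nuclear hormone receptor genes that are known to switch on these pathways formed a list of 3. NHR-10 and NHR-68 activate the shunt when propionate builds up, and NHR-114 activates methionine cycle genes when S-adenosylmethionine runs low. Of these 3 genes, nhr-68 and nhr-114 fell at day 11 in both strains, where 18% of all genes in daf-2 and 19.2% in N2 were called lower. Levels of nhr-68 were 38.1, 29.4 and 46.4 CPM at day 11, against 62.5, 52.4 and 111.4 CPM at day 1, in daf-2 (-0.99 ± 0.25, adjusted p = 0.00349). In N2 they were 22.6, 22.0 and 30.3 CPM at day 11, against 68.2, 52.9 and 86.1 CPM at day 1 (-1.47 ± 0.25, adjusted p = 0.000102). The receptor gene nhr-114 was at lower levels, 4.36, 4.51 and 2.90 CPM at day 11, against 21.6, 16.6 and 17.5 CPM at day 1, in daf-2, and 3.13, 2.47 and 2.41 CPM, against 40.5, 12.9 and 12.8 CPM, at the same ages in N2. Its changes were -2.24 ± 0.35 in daf-2 (adjusted p = 4.36e-05) and -3.04 ± 0.36 in N2 (adjusted p = 1.48e-06). For nhr-10 the values were 0.35 ± 0.27 in daf-2 (adjusted p = 0.311) and 0.48 ± 0.27 in N2 (adjusted p = 0.156).

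In the B12 dependent route the changes with age were small next to those of the shunt, and differed from gene to gene. The carboxylase gene pccb-1 fell at day 11 in daf-2, mce-1 fell in both strains, and pcca-1 and mmcm-1 were not called at any age in either strain in the model without a block. No gene of this route changed as much as 2-fold between day 11 and day 1 in either strain.

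For pcca-1, daf-2 worms had 285, 289 and 238 CPM at day 1, 276, 237 and 224 CPM at day 4, 239, 224 and 229.9 CPM at day 7, and 258, 243 and 251 CPM at day 11. N2 worms had 241, 225 and 224 CPM at day 1, 220.3, 198 and 200.1 CPM at day 4, 211, 223 and 214 CPM at day 7, and 279, 258 and 266 CPM at day 11. In N2 every day 11 library was above every day 1 library, while the same ages overlapped in daf-2. Day 11 against day 1 gave -0.11 ± 0.12 in daf-2 (adjusted p = 0.467) and 0.22 ± 0.12 in N2 (adjusted p = 0.134). The N2 value passed with the library number as a block (adjusted p = 0.0294) and with 2 other scalings, by upper-quartile factors (0.41, adjusted p = 0.00337) and by library size alone (0.45, adjusted p = 0.00355). These scalings turned the daf-2 value to 0.10 and 0.09. They also raised the median of all genes at day 11, from 0.101 to 0.284 and 0.331 in N2. In daf-2 that median went from 0.0869 to 0.289 with either scaling. At day 7 the change in daf-2 was -0.23 ± 0.12 (adjusted p = 0.153), which passed with the library number as a block (adjusted p = 0.0338), without the libraries numbered 3 (adjusted p = 0.0291) and with DESeq2's Wald test (adjusted p = 0.011).

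Its partner pccb-1 had 423, 416 and 324 CPM at day 1, 299.7, 261 and 249.7 CPM at day 4, 255, 275 and 230.3 CPM at day 7, and 265, 258 and 255 CPM at day 11 in daf-2 worms. N2 worms had 256.1, 235.4 and 269.6 CPM at day 1, 207, 202 and 199 CPM at day 4, 188, 207 and 197 CPM at day 7, and 235.2, 208.7 and 227.1 CPM at day 11. In daf-2 the day 1 libraries stood above all later ones, and in N2 they did so by less. The fall in daf-2 was -0.52 ± 0.13 at day 4 (adjusted p = 0.0118), -0.61 ± 0.13 at day 7 (adjusted p = 0.00128) and -0.58 ± 0.13 at day 11 (adjusted p = 0.00119). In N2 it was -0.32 ± 0.13 at day 4 (adjusted p = 0.121), -0.36 ± 0.13 at day 7 (adjusted p = 0.0388) and -0.18 ± 0.13 at day 11 (adjusted p = 0.261), so that only the day 7 value passed there. The day 7 call in N2 was lost without any 1 of 5 libraries, day 1 libraries 1 and 3 and day 7 libraries 1, 2 and 3 (adjusted p = 0.0981, 0.0966, 0.117, 0.0633 and 0.0888). The day 4 call in daf-2 was lost without day 1 library 1 or 2 or day 4 library 2 or 3 (adjusted p = 0.0629, 0.051, 0.0553 and 0.0626). With only the groups compared in the fit, none of the calls of pccb-1 with age passed, daf-2 day 11 included (adjusted p = 0.0663).

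The epimerase gene mce-1 was the lowest of the route, with libraries between 23.8 and 26.6 CPM at day 11 and 29.2 and 45.6 CPM at day 1 in daf-2, and between 14.8 and 20.1 CPM at day 11 and 24.4 and 32.8 CPM at day 1 in N2. The ages did not overlap in either strain. It fell at day 11 in daf-2 (-0.51 ± 0.17, adjusted p = 0.0225) and in N2 (-0.63 ± 0.17, adjusted p = 0.00592). The daf-2 call was lost without day 1 library 3 (-0.29, adjusted p = 0.154) and without day 11 library 1 or 2 (adjusted p = 0.0596 and 0.0714). It was also lost with only the groups compared (adjusted p = 0.121) and without all libraries numbered 3 (-0.33, adjusted p = 0.0537). With scaling by upper-quartile factors or by library size alone the change passed in neither strain, with adjusted p = 0.188 and 0.186 in daf-2 and 0.064 and 0.092 in N2.

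The mutase gene mmcm-1 had the closest group means of the 9, although its libraries differed within each group. They spanned 155 to 260.2 CPM at day 1, 152 to 263 CPM at day 4, 144 to 252 CPM at day 7 and 160 to 209.8 CPM at day 11 in daf-2. In N2 they spanned 148 to 245 CPM, 168 to 253 CPM, 137 to 268 CPM and 174 to 216 CPM at the same ages. The lowest library in every group was the one numbered 3. Day 11 against day 1 gave -0.26 ± 0.28 in daf-2 (95% interval -0.84 to 0.32, adjusted p = 0.479) and -0.06 ± 0.28 in N2 (95% interval -0.64 to 0.52, adjusted p = 0.875). Without the libraries numbered 3 the daf-2 value was -0.36 and passed (adjusted p = 0.00959).

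The distance between the highest and lowest of the 8 group means of mmcm-1 was 0.23 on the log2 scale. This was smaller than in all but 3.07% of 5308 genes with a mean of at least 10 CPM. These 5308 were protein-coding genes with a gene-class name of the form of acdh-1, and genes known only by a sequence name were left out. For acdh-1 this distance was 5.15, and 98.6% of those genes had a smaller one. It was 3.64 for hphd-1 and 2.57 for sams-1, above 97.5% and 95.1% of them, and between 0.39 for pcca-1 and 1.14 for mtrr-1 in the other 5.

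Genes that process or transport vitamin B12 were followed as a list. Of 4, mmaa-1 and mmab-1 fell and mrp-5 rose at day 11 in each strain, while 18% of all genes fell and 22.2% rose in daf-2 and 19.2% fell and 22.5% rose in N2. The changes of mmaa-1, whose human counterpart loads the mutase with its cofactor, were -0.82 ± 0.22 in daf-2 (adjusted p = 0.00664) and -0.75 ± 0.22 in N2 (adjusted p = 0.0106). Those of the cobalamin adenosyltransferase gene mmab-1 were -0.41 ± 0.14 in daf-2 (adjusted p = 0.0225) and -0.58 ± 0.14 in N2 (adjusted p = 0.00207). The transporter gene mrp-5 rose by 0.70 ± 0.18 in daf-2 (adjusted p = 0.00443) and 1.02 ± 0.18 in N2 (adjusted p = 0.000156). For cblc-1 the values were -0.36 ± 0.16 in daf-2 (adjusted p = 0.0739) and -0.38 ± 0.16 in N2 (adjusted p = 0.0602).

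All 3 methionine cycle genes fell by day 11 in N2, and sams-1 and mtrr-1 fell in daf-2. The largest change was that of sams-1, which was 4.82-fold lower at day 11 than at day 1 in daf-2 and 6.03-fold lower in N2. The genes of the methionine synthase pair, metr-1 and mtrr-1, changed less.

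For sams-1, daf-2 worms had 132, 87.5 and 102 CPM at day 1, 84.3, 50.3 and 56.6 CPM at day 4, 38.9, 31.3 and 26.6 CPM at day 7, and 22.8, 22.5 and 21.3 CPM at day 11. N2 worms had 156, 89.9 and 124 CPM at day 1, 71.5, 47.5 and 86.2 CPM at day 4, 37.1, 25.8 and 33.8 CPM at day 7, and 25.4, 17.8 and 18.2 CPM at day 11. Within each strain the libraries of the 4 ages did not overlap, while the strains overlapped at every age. The fall was -0.75 ± 0.25 at day 4 in daf-2 (adjusted p = 0.0626; adjusted p = 0.00203 with the library number as a block) and -0.85 ± 0.25 in N2 (adjusted p = 0.0344). The N2 call at day 4 was lost without day 1 library 1 or 3 or day 4 library 1 or 2 (adjusted p = 0.203, 0.0651, 0.0829 and 0.189), with only the groups compared (adjusted p = 0.147) and with library size alone (adjusted p = 0.0787). In daf-2 leaving out 1 library gave day 4 values from -1.004 (without day 4 library 1, adjusted p = 0.0278) to -0.57 (without day 1 library 1, adjusted p = 0.24). At day 7 it was -1.73 ± 0.25 in daf-2 and -1.94 ± 0.26 in N2. At day 11 it was -2.27 ± 0.26 in daf-2 (adjusted p = 1.26e-06) and -2.59 ± 0.26 in N2 (adjusted p = 2.2e-07).

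For the reductase gene mtrr-1, daf-2 worms had 145, 148 and 111.4 CPM at day 1, 98.5 ± 4.95 CPM (mean ± SD, n = 3) at day 4, 82.6, 83.9 and 84.9 CPM at day 7, and 79.8, 81.7 and 71.7 CPM at day 11. N2 worms had 220.1, 148 and 109.6 CPM at day 1, 109.1 ± 5.35 CPM (mean ± SD, n = 3) at day 4, 81.3, 78.6 and 72.1 CPM at day 7, and 74.3, 70.4 and 63.2 CPM at day 11. In N2 day 1 library 1 stood far above the other 2, and the day 1 and day 4 ranges overlapped there but not in daf-2. It fell at day 7 (-0.68 ± 0.18, adjusted p = 0.00683 in daf-2; -1.04 ± 0.18, adjusted p = 0.000206 in N2) and at day 11 (-0.79 ± 0.18, adjusted p = 0.00141 in daf-2; -1.20 ± 0.18, adjusted p = 2.18e-05 in N2). At day 4 it did not pass in daf-2 (-0.45 ± 0.18, adjusted p = 0.118; adjusted p = 0.0329 with the library number as a block) or in N2 (-0.54 ± 0.18, adjusted p = 0.057), where leaving out 1 library gave values from -0.75 (without day 1 library 3, adjusted p = 0.00481) to -0.24 (without day 1 library 1, adjusted p = 0.47).

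For the methionine synthase gene metr-1, daf-2 worms had 393, 371 and 216 CPM at day 1 and 233, 229 and 155 CPM at day 11. N2 worms had 509.7, 368 and 214 CPM at day 1 and 199.9, 157 and 141 CPM at day 11. The ages overlapped in daf-2, where day 1 library 3 was low, and did not overlap in N2. At days 4 and 7 the libraries lay between 176 and 349 CPM in daf-2 and between 190 and 359 CPM in N2. At day 7 the change was -0.54 ± 0.27 in daf-2 (adjusted p = 0.152; adjusted p = 0.00455 with the library number as a block) and -0.72 ± 0.27 in N2 (adjusted p = 0.0597). Leaving out 1 library at day 7 gave values from -0.76 to -0.38 in daf-2 and from -0.99 to -0.40 in N2, and day 1 library 3 was the 1 library without which they passed (adjusted p = 0.0462 in daf-2 and 0.00885 in N2). The change at day 11 was -0.67 ± 0.27 in daf-2 (adjusted p = 0.0583) and -1.13 ± 0.28 in N2 (adjusted p = 0.00264). The daf-2 value passed with the library number as a block (-0.65, adjusted p = 0.000552), without all libraries numbered 3 (-0.72, adjusted p = 0.00287), and narrowly with DESeq2 size factors, both other filters, protein-coding genes only and DESeq2's Wald test (adjusted p between 0.033 and 0.0485). It did not pass with upper-quartile factors, library size alone or only the groups compared (adjusted p = 0.136, 0.148 and 0.12). Leaving out 1 library gave values from -0.90 (without day 1 library 3, adjusted p = 0.0142) to -0.50 (without day 11 library 3, adjusted p = 0.216).

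**Figure D2:**
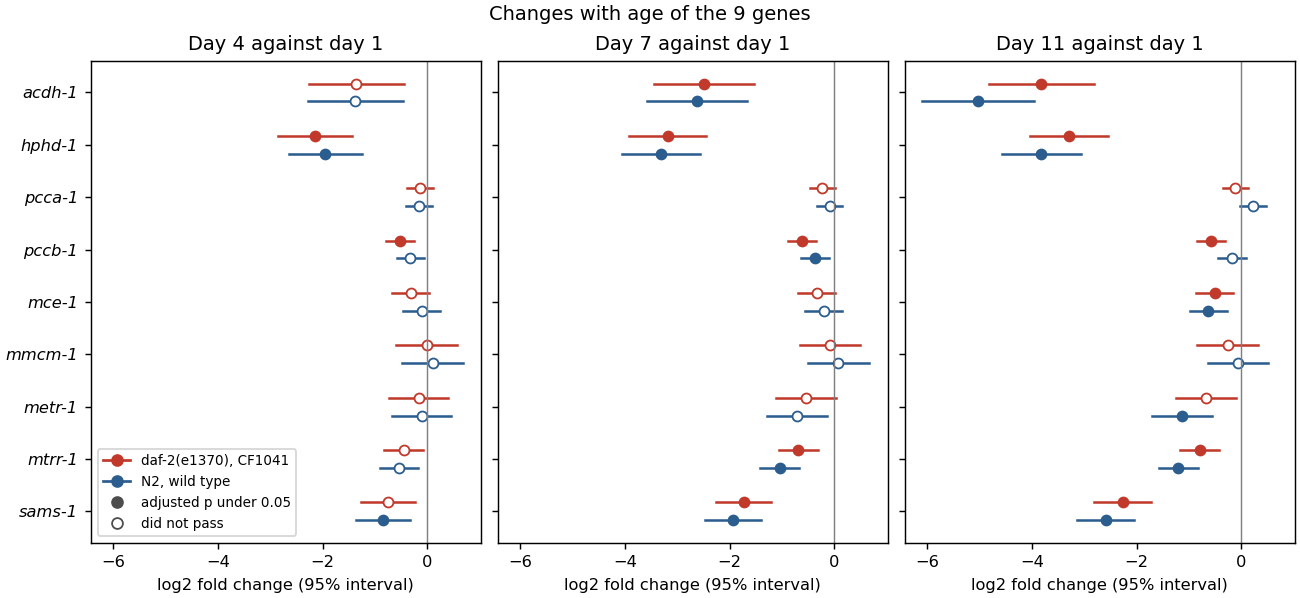
Log2 fold change of the 9 genes at day 4, 7 and 11 against day 1, with 95% intervals that are not adjusted for multiple tests, daf-2(e1370) in red above N2 in blue; filled points passed at an adjusted p under 0.05. The points of acdh-1, hphd-1, sams-1 and mtrr-1 move left from day 4 to day 11 in both strains, and every filled point is below 0.

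Read together, 2 of the 9 genes were called at day 4 in daf-2 (hphd-1 and pccb-1), where 5.01% of all genes tested were called lower, and 2 in N2 (hphd-1 and sams-1), where 6.07% were. At day 7 5 of 9 were called in each strain, the same 5 genes (acdh-1, hphd-1, pccb-1, mtrr-1 and sams-1), with 12.7% of all genes lower in daf-2 and 13.1% in N2. At day 11 6 of 9 were called in each strain, with 18% of all genes lower and 22.2% higher in daf-2, and 19.2% lower and 22.5% higher in N2. In daf-2 these were acdh-1, hphd-1, pccb-1, mce-1, mtrr-1 and sams-1, and in N2 metr-1 stood in the place of pccb-1. All of these calls were decreases. With the library number as a block, 5 genes were called at day 4 in daf-2, acdh-1, mtrr-1 and sams-1 in addition. At day 7 there 7 were called, pcca-1 and metr-1 in addition. Over all genes the block also raised the calls in daf-2, to 1980 lower at day 4 and 3485 lower at day 7. In N2, whose day 4 comparison did not meet that pairing, 5 of the 9 were called at day 4 with the block, beside 2196 genes lower. The median log2 change of the 9 genes at day 11 was -0.67 in daf-2 and -1.13 in N2, beside medians of 0.09 and 0.10 over all genes tested.

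Summed marker levels of several tissues moved with age as well. The 10 intestinal markers summed to between 551 and 754 CPM at day 11, against 2891 to 3001 CPM at day 1, in daf-2, and to between 1782 and 2128 CPM at day 11, against 3249 to 3707 CPM at day 1, in N2. Of these 10, 7 were called lower in daf-2, and in N2 6 were called lower and 1 higher, elt-7. Not called in either strain were elt-2 (-0.09 in daf-2 and -0.11 in N2) and ges-1 (0.53 and 0.20 in the same order). The 7 hypodermal markers summed to between 144 and 160 CPM at day 11, against 1593 to 2523 CPM at day 1, in daf-2, and to between 128 and 187 CPM, against 1846 to 3306 CPM, at the same ages in N2. That sum was nearly all col-19, with a mean of 140.3 CPM at day 11, against 2118 CPM at day 1, in daf-2, and 138.1 CPM, against 2554 CPM, in N2, and 4 of the 7 were called lower in daf-2 and 3 in N2. The 7 body-wall muscle markers summed to between 265 and 431 CPM at day 11, against 1485 to 3590 CPM at day 1, in daf-2, and to between 330 and 535 CPM, against 1803 to 2632 CPM, in N2, and all 7 were called lower in both strains. Sums of the 7 neuronal markers overlapped between the ages in daf-2 (140.3 to 163 CPM at day 11, against 113.7 to 168 CPM at day 1) and were higher at day 11 in N2 (169 to 198 CPM, against 118 to 154 CPM), and snb-1 was the 1 neuronal marker called, higher in both strains (0.89 in daf-2 and 1.03 in N2). The 7 germline markers overlapped between the ages in daf-2 (910 to 1246 CPM at day 11, against 1103 to 1998 CPM at day 1) and were lower at day 11 in N2 (900.5 to 1210 CPM, against 1350 to 2296 CPM). The sums of the 7 oocyte and eggshell markers overlapped in both strains. Those of the 6 sperm markers were at 22.6 to 45.4 CPM at day 11, against 6.36 to 22.2 CPM at day 1, in daf-2, and overlapped in N2. Of the 7 germline markers 3 were called lower in daf-2 and 4 in N2. Called higher were 1 oocyte and eggshell marker in daf-2 and 2 in N2, and 3 sperm markers in each strain. Over all genes 18% were called lower and 22.2% higher in daf-2, and 19.2% and 22.5% in N2. All markers of these 7 lists were above 0 in at least 1 library, and the part of tissue make-up in the changes of the 9 genes was not tested. In whole worms, fewer cells of a type and less RNA per cell cannot be told apart.

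Between the strains few of the 9 genes were called. At day 1 only pccb-1 was called, higher in daf-2, where 1.75% of all genes tested were called and 1.14% were called higher. At days 4, 7 and 11 none of the 9 was called by edgeR's quasi-likelihood test without a block, where 1.93%, 2.1% and 3.92% of all genes were. At an unadjusted p under 0.05 there were 3 of the 9 at day 4, 1 at day 7 and 2 at day 11. Of the 16698 genes tested, 1624, 1642 and 2569 were under that limit at the same ages. DESeq2's Wald test called 1, 1 and 0 of the 9, beside 488, 526 and 980 of all genes.

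The higher level of pccb-1 in daf-2 at day 1 was 0.61 ± 0.13 on the log2 scale (adjusted p = 0.0106), with all 3 daf-2 libraries (423, 416 and 324 CPM) above all 3 N2 libraries (256.1, 235.4 and 269.6 CPM). The call was lost without daf-2 day 1 library 1 or 2 or N2 day 1 library 2 (adjusted p = 0.0609, 0.0721 and 0.0735), and with only these 2 groups in the fit (0.63, adjusted p = 0.507). At the later ages pccb-1 was again higher in every daf-2 library than in every N2 library of the same day. The difference was 0.41 ± 0.13 at day 4 (adjusted p = 0.121), 0.36 ± 0.13 at day 7 (adjusted p = 0.217) and 0.21 ± 0.13 at day 11 (adjusted p = 0.505). With the library number as a block it passed at day 4 (adjusted p = 0.0194) and at day 7 (adjusted p = 0.0429). It also passed at both ages with DESeq2's Wald test (adjusted p = 0.0192 and 0.0461) and without the libraries numbered 3 (0.0349 and 0.0414). At day 4 alone it passed with upper-quartile factors, library size alone and 1 CPM in 3 libraries (adjusted p between 0.0333 and 0.0497). With DESeq2 size factors, no low-count filter, protein-coding genes only or only the groups compared it passed at neither age.

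At day 11 acdh-1 was at 161, 50.9 and 88.8 CPM in daf-2 and at 66.2, 16.6 and 57.0 CPM in N2. The ranges overlapped, and in each numbered pair the daf-2 library was the higher. The difference of 1.10 ± 0.44 (95% interval 0.19 to 2.01) did not pass (adjusted p = 0.199), and passed with the library number as a block (1.11, adjusted p = 0.0137). For mce-1 the difference at day 11 was 0.50 ± 0.17 (adjusted p = 0.123; adjusted p = 0.0302 with the block), and its daf-2 libraries, 24.7, 23.8 and 26.6 CPM, were all above its N2 libraries, 18.2, 14.8 and 20.1 CPM. At day 1 the 95% intervals of the strain difference were -0.996 to 0.79 for acdh-1, -1.16 to 0.19 for hphd-1, -0.01 to 0.48 for pcca-1 and 0.02 to 0.73 for mce-1, none of which passed. The direction for acdh-1 and hphd-1 at day 1 rested on N2 library 1, without which the differences were 0.36 and 0.12. Without daf-2 library 2 the difference for acdh-1 was 0.08.

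**Figure D3:**
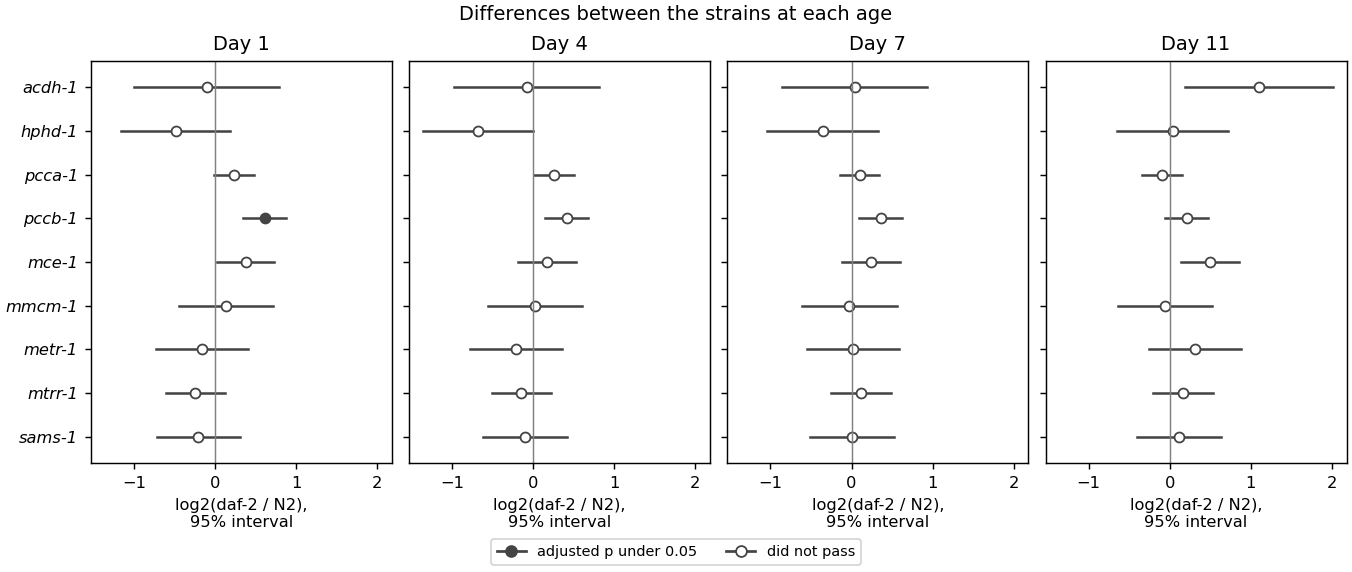
Log2 difference between daf-2(e1370) and N2 for the 9 genes at days 1, 4, 7 and 11, with 95% intervals that are not adjusted for multiple tests; filled points passed at an adjusted p under 0.05. The only filled point is pccb-1 at day 1, at 0.61, and acdh-1 at day 11 lies farthest to the right, at 1.10, without passing.

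Whether the age change itself differed between the strains was tested by the interaction of strain and age. None of the 9 genes was called by edgeR's quasi-likelihood test at day 4, day 7 or day 11, where 0%, 0.012% and 0.347% of all genes were. At an unadjusted p under 0.05 there was 1 of the 9, pccb-1 at day 11. Of the 16698 genes tested, 408, 621 and 1300 were under that limit at days 4, 7 and 11. DESeq2's Wald test called 0 of the 9, beside 4, 46 and 167 of all genes. For acdh-1 at day 11 the interaction, daf-2 minus N2, was 1.20 ± 0.61 (95% interval -0.07 to 2.48, adjusted p = 0.695). The interaction was 0.52 ± 0.46 for hphd-1, 0.32 ± 0.35 for sams-1 and 0.41 ± 0.25 for mtrr-1, and -0.33 ± 0.17 for pcca-1 and -0.40 ± 0.18 for pccb-1. The calls of pccb-1 and metr-1 at day 11 in 1 strain each are therefore not shown to differ between the strains.

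**Figure D4:**
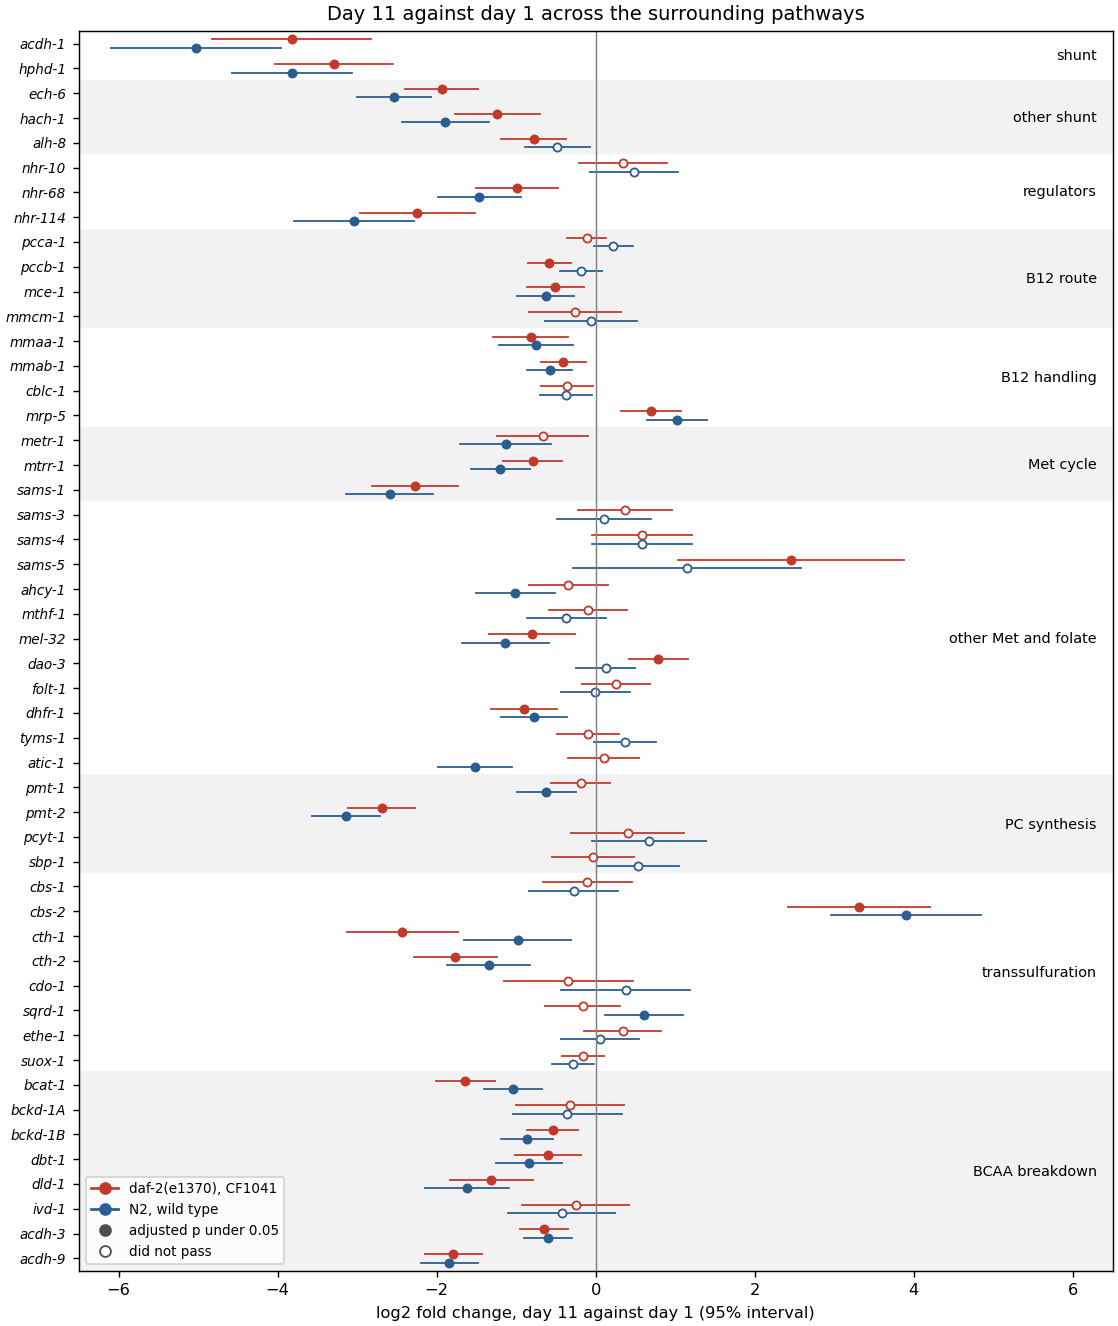
Log2 fold change at day 11 against day 1, with unadjusted 95% intervals, of the 9 genes and of the genes of the surrounding pathways, daf-2(e1370) in red above N2 in blue; filled points passed at an adjusted p under 0.05. In both strains acdh-1, hphd-1, ech-6, nhr-114, sams-1 and pmt-2 lie beyond -1.9, and the 4 genes of the B12 dependent route lie between -0.63 and 0.22.

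Around the methionine cycle, 11 further methionine and folate genes were followed. Of these 2 fell and 2 rose at day 11 in daf-2, near the 18% and 22.2% of all genes that did so, and 4 fell and 0 rose in N2, beside 19.2% and 22.5% of all genes. Their median was 0.10 on the log2 scale in daf-2 and -0.00 in N2. The serine hydroxymethyltransferase gene mel-32 fell in daf-2 (-0.80 ± 0.26, adjusted p = 0.0187) and in N2 (-1.14 ± 0.26, adjusted p = 0.00165), as did the dihydrofolate reductase gene dhfr-1 (-0.90 ± 0.20 and -0.77 ± 0.20 in the same order). The S-adenosylhomocysteine hydrolase gene ahcy-1 fell in N2 (-1.01 ± 0.24, adjusted p = 0.00201) and was at -0.34 ± 0.24 in daf-2 (adjusted p = 0.257). In daf-2 the folate enzyme gene dao-3 rose (0.79 ± 0.18, adjusted p = 0.00157). With the library number as a block, 7 of the 11 were called in each strain. Of these, 4 rose and 3 fell in daf-2, and 2 rose and 5 fell in N2. The share of all genes called at day 11 with the block is not given here.

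No fall was called in the paralogs of sams-1. Day 11 against day 1 gave 0.37 ± 0.28 in daf-2 and 0.10 ± 0.28 in N2 for sams-3, and 0.58 ± 0.30 in both strains for sams-4, none of which passed. Both had fractional counts in all 24 libraries, as when reads are divided between genes, so their values are uncertain. Which genes shared the reads was not examined. The third paralog, sams-5, had whole counts and was at 36.8, 49.0 and 16.6 CPM at day 11, against 3.83, 4.27 and 10.6 CPM at day 1, in daf-2, a rise of 2.45 ± 0.68 (adjusted p = 0.0074). In N2 sams-5 was at 8.26, 3.14 and 3.66 CPM at day 11, against 2.23, 1.16 and 3.38 CPM at day 1 (1.15 ± 0.69, adjusted p = 0.189). At day 11 it was higher in daf-2 than in N2 (2.76 ± 0.69, adjusted p = 0.0231), without an interaction that passed (1.301 ± 0.95, adjusted p = 0.931). The paralog of acdh-1, acdh-2, fell in N2 at day 11 (-1.77 ± 0.40, adjusted p = 0.00137) and was at -0.52 ± 0.39 in daf-2 (adjusted p = 0.301).

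Of the 11 methionine and folate genes, 1 was called for the interaction of strain and age at day 11, beside 0.347% of all genes. How this call held under the alternatives is not given here. The purine synthesis gene atic-1 was at 108, 127 and 96.3 CPM at day 11, against 91.1, 119.8 and 98.2 CPM at day 1, in daf-2, ranges that overlapped (0.10 ± 0.22, adjusted p = 0.736). In N2 it was at 28.3, 29.5 and 25.8 CPM at day 11, against 80.8, 66.5 and 92.2 CPM at day 1, and fell (-1.52 ± 0.22, adjusted p = 1.77e-05). The interaction was 1.62 ± 0.31 (adjusted p = 0.0245), and the strain difference at day 11 was 1.99 ± 0.22 (adjusted p = 8.18e-06). At that age dao-3 was also higher in daf-2 (0.94 ± 0.18, adjusted p = 0.00238). With sams-5, these made 3 of the 11 genes higher in daf-2 at day 11, beside 3.92% of all genes called in either direction.

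Genes of phosphatidylcholine synthesis, which uses S-adenosylmethionine, were also followed. Of 4 genes, 1 fell at day 11 in daf-2 and 2 in N2, beside 18% and 19.2% of all genes. The phosphoethanolamine methyltransferase gene pmt-2 was at 93.2, 74.6 and 76.9 CPM at day 11, against 607, 459 and 515 CPM at day 1, in daf-2 (-2.69 ± 0.20, adjusted p = 5.24e-09). In N2 it was at 75.4, 65.4 and 67.2 CPM at day 11, against 823, 492 and 517 CPM at day 1 (-3.14 ± 0.21, adjusted p = 6.7e-10). The other methyltransferase gene of the pathway, pmt-1, fell in N2 (-0.62 ± 0.18, adjusted p = 0.00801). With the library number as a block, 2 were called in daf-2 (1 higher and 1 lower) and 4 in N2 (2 higher and 2 lower). The share of all genes called with the block is not given here for day 11. Without N2 day 1 library 3 only 1 was called in N2.

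Genes that carry homocysteine on to cysteine and break down sulfide were a list of 8. At day 11 2 fell and 1 rose in daf-2, and 2 fell and 2 rose in N2, shares near those of all genes (18% lower and 22.2% higher in daf-2, 19.2% lower and 22.5% higher in N2). The cystathionine gamma-lyase genes fell: cth-1 by -2.43 ± 0.34 in daf-2 and -0.98 ± 0.32 in N2, and cth-2 by -1.77 ± 0.25 in daf-2 and -1.35 ± 0.25 in N2. The genes that rose were cbs-2, a cystathionine beta-synthase gene named after its values were seen (3.31 ± 0.43 in daf-2 and 3.90 ± 0.45 in N2), and in N2 sqrd-1 (0.61 ± 0.24, adjusted p = 0.0445). The count in N2 was 2 in place of 4 without day 1 library 3, day 11 library 2 or day 11 library 3. The sulfide:quinone oxidoreductase gene sqrd-1 was also higher in daf-2 than in N2, with 13.8, 17.2 and 18.99 CPM in daf-2 and 3.61, 4.18 and 3.01 CPM in N2 at day 1 (2.21 ± 0.24, adjusted p = 7.95e-06), and by 1.44 ± 0.23 at day 11 (adjusted p = 0.000521).

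Genes that break down branched-chain amino acids, a source of propionate, were followed as a list of 8. At day 11 6 of the 8 fell in each strain, beside 18% of all genes in daf-2 and 19.2% in N2, with medians of -0.62 in daf-2 and -0.85 in N2. The aminotransferase gene bcat-1 fell by -1.64 ± 0.18 in daf-2 and -1.04 ± 0.18 in N2, the dihydrolipoamide dehydrogenase gene dld-1 by -1.31 ± 0.25 and -1.62 ± 0.25 in the same order, and the acyl-CoA dehydrogenase gene acdh-9 by -1.79 ± 0.17 and -1.84 ± 0.17. At day 11 bcat-1 was lower in daf-2 than in N2 (-0.65 ± 0.18, adjusted p = 0.0383), a call lost without N2 day 11 library 1 or 2 or daf-2 day 11 library 2 or 3. The call was also lost with library size alone, without the low-count filter and with only the groups compared. In the family of acdh-1, leaving it out, 4 of 12 acyl-CoA dehydrogenase genes fell and 2 rose in daf-2, and 5 fell and 3 rose in N2, where the shares that rose were near those of all genes (22.2% in daf-2 and 22.5% in N2). Falls included acdh-13 (-0.99 ± 0.20 in daf-2 and -1.37 ± 0.20 in N2) and acdh-12 (-0.71 ± 0.17 in daf-2), beside acdh-9 and, in N2, acdh-2. The rises, named after their values were seen, were those of acdh-5 and acdh-10 in both strains and of acdh-7 in N2.

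Patterns over the 8 groups were also compared with those of 5307 other protein-coding genes that had a gene-class name. All had a mean of at least 10 CPM. Likeness was measured by the root mean square difference of centred group means of log2 CPM. The genes most like acdh-1 were asp-14, at a difference of 0.33, pcp-2 at 0.51 and lec-10 at 0.52. Those most like sams-1 were ppat-1 (0.20), pmt-2 (0.21) and alh-9 (0.21). Those most like mmcm-1, whose group means hardly moved, were fndc-1, ufc-1 and vms-1, at 0.04 to 0.05. These values are descriptions over 8 group means that share the same libraries.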

How the data were processed

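For 24 libraries the authors deposited 1 table each of expected counts, estimates that need not be whole and that were rounded here. The kit was stranded and removed ribosomal RNA from total RNA, per the labels' protocols. The submitters' processing notes name WBcel235 and ce11 as builds and RSEM 1.3.1 and STAR 2.7.0e as tools, and the strand setting of the counting is not given in the sources used here. Of 46904 identifiers 46817 matched the Ensembl annotation, which gave symbols, positions and exon lengths. Samples were grouped by strain and day from the labels. The filterByExpr step of edgeR left 16698 genes, which were scaled by TMM and fitted in 1 quasi-likelihood model of all libraries, with 13 contrasts and Benjamini-Hochberg adjustment at 0.05. An SE was taken as the absolute log2 change divided by the root of F. The fit was also tested on simulated data, with an outcome that is not given here.

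The 9 genes, the lists around them and the tests were chosen with earlier results of these data known. From each list the text names up to 3 called members with the largest change and a mean of at least 10 CPM, and always nhr-10, nhr-68, nhr-114, acdh-2, sams-3, sams-4 and sams-5, for day 11 against day 1 and the strains at days 1 and 11. No libraries of a group agreed within sampling noise (lowest median chi-square per gene 2.43 over 24 pairs). Library numbers come from the labels. They were taken to pair libraries where all 3 same-numbered pairs correlated above 0.1 in their deviations from the group means, which held for all age comparisons in daf-2, for day 11 in N2 and for all strain comparisons. Alternatives were DESeq2's Wald test, other scalings and filters, a block for library number, a fit of the compared groups alone, a table of protein-coding genes, no libraries numbered 3, and each library left out. Sequences and promoter motifs were not analysed here. Tools were R 4.3.3, edgeR 4.0.16, DESeq2 1.42.0, Python 3.11.15, pandas 2.3.3 and matplotlib 3.10.9.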

Additional observations from a re-analysis of the deposited data

How the results depend on the processing

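Of 27 calls of the 9 genes, tried under 432 alternatives in all, 397 kept direction and threshold, 35 fell short of the threshold and 0 reversed. Upper-quartile scaling and library size alone raised the median of all genes at day 11 to 0.29 and 0.29 in daf-2 and to 0.28 and 0.33 in N2, and the share of calls that were higher to 68.9% and 69.4% in daf-2 and 65.4% and 69.5% in N2, against 55.3% and 53.9% with TMM. Under them uncalled values reversed: pcca-1 in daf-2 (0.0975 and 0.0941), mmcm-1 in N2 (0.13 and 0.18) and, with library size alone, pccb-1 in N2 (0.0497) and at day 7 pcca-1 in N2 (0.101). Leaving out 1 library reversed mmcm-1 in N2 at day 11 (range -0.25 to 0.0928; without day 1 library 2 and day 11 library 3) and at day 7 (-0.107 to 0.321 in N2 and -0.288 to 0.132 in daf-2), acdh-1 and hphd-1 between strains at day 1 (-0.32 to 0.36 and -0.80 to 0.12) and the interaction of hphd-1 (-0.0867 to 0.84, without N2 day 1 library 1). The cause was not tested.

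With the library number as a block the members called were 5 at day 4 in daf-2 and 5 in N2, 1, 1 and 2 between strains at days 4, 7 and 11, and the genes called rose to 3818 and 7529 at days 4 and 7 in daf-2, 3854 and 7148 in N2, 663, 823, 877 and 1609 between strains, and 30 and 260 for the interaction at days 7 and 11. In N2 at days 4 and 7 and for the interaction the samples share only a number (lowest pair correlation 0.0845, 0.0952 and -0.0585), although all 24 libraries correlated best with their own number. Beside the calls given with the results, the block changed those of mtrr-1 and pccb-1 in N2 at day 4 and metr-1 in N2 at day 7 (adjusted p = 0.000706). In all it changed 15 of the 65 gene and comparison pairs tabulated. Members called numbered 4 at day 4 in daf-2 with DESeq2 size factors, protein-coding genes only and DESeq2's Wald test. In N2 at day 4 they numbered 4 at 1 CPM in 3 libraries or with protein-coding genes, 5 with DESeq2's test and 1 with library size alone. Between strains 1 was called at day 4 with upper-quartile factors, library size alone, the 1 CPM filter, DESeq2's test and no libraries numbered 3, 1 at day 7 with the last 2, 1 at day 11 with the last, and 0 at day 1 with only the groups compared. Genes called with only those groups were 646 and 2602 in daf-2 at days 4 and 7, 828 and 2518 in N2, 75 and 194 between strains at days 1 and 7, and 0 and 18 for the interaction at days 7 and 11. Without libraries numbered 3 they were 2319 in daf-2 and 3031 in N2 at day 4, 997 between strains at day 11, and 4 and 135 for the interaction. DESeq2's test gave 488 and 526 between strains at days 4 and 7 and 4, 46 and 167 for the interaction, and library size alone 5 at day 7.

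Leaving out each library gave 1 to 3 members at day 4 in either strain, 5 to 6 at day 7 and 5 to 6 at day 11 in daf-2, 4 to 5 at day 7 and 6 at day 11 in N2, and 0 to 1 between strains at day 1. Genes called ranged from 907 to 1333, 3342 to 4684 and 5207 to 7150 in daf-2, 711 to 1554, 2854 to 4544 and 5567 to 7135 in N2, 168 to 326, 173 to 268, 181 to 306 and 381 to 605 between strains, and 0 to 1, 0 to 11 and 19 to 95 for the interaction.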
